A study of Mus musculus with 24 samples.

Results

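Proteasome genes were examined in mouse liver as the protein-coding genes whose symbols begin with Psma to Psmg followed by a number, and whose level averaged at least 1 CPM (a gene's share of the reads assigned to genes, scaled to counts per M reads) over the libraries used. Of the 41388 genes in the files, 50 protein-coding genes matched the pattern and 47 passed the level. Psme2b, the lowest gene inside the threshold, averaged 3.02 CPM. The 3 outside it were Psma8 at 0.333 CPM, Psmc3ip at 0.306 CPM and Psmb11 at 0.0333 CPM. Psmc3ip encodes a meiotic recombination factor rather than a proteasome subunit.

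The proteasome degrades proteins that carry ubiquitin chains. Its 20S core is a barrel of stacked alpha and beta rings with the protease sites inside, and a 19S cap on the barrel's end binds the substrate, removes ubiquitin and threads the protein in with a ring of ATPases. Interferon-responsive cells can exchange the catalytic beta subunits for immune forms and cap the core with the PA28 activator, a form of the enzyme known for producing peptides for antigen presentation. In liver, fasting is a setting in which protein breakdown supplies amino acids, and both the lysosome and the proteasome take part in it.

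The libraries came from a factorial design of genotype and feeding, with 6 libraries labelled in each of 4 groups. The groups were livers of mice with a liver-specific knockout of alanine transaminase 2 (gene Gpt2; genotype label LSALT2KO) that were fasted for 18 h, the same knockout fed ad libitum, floxed (fl/fl) controls fasted for 18 h, and fl/fl controls fed ad libitum. The sources used here give neither the driver of the deletion nor strain and age. Whether each library is a different mouse is not stated in the labels, and the p-values therefore cover only the spread between libraries. RNA was selected with oligo-dT, so the values describe polyadenylated transcripts of whole liver, in which fewer cells of a type and less RNA per cell cannot be told apart.

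Both a damaged file and a library that stood apart were left out before the comparisons. The file of control fed replicate 6 was truncated early. A list of 7 kidney markers summed to 19600 CPM, without TMM factors, in the library labelled control fasted replicate 4. In the libraries used below, the list summed to at most 16 CPM scaled by TMM factors. The Gpt2 level of control fasted replicate 4, 54.8 CPM without TMM factors, went against its label. The 22 libraries used were 6 knockout fasted, 6 knockout fed, 5 control fasted and 5 control fed, with 18.4 M to 55.3 M reads assigned to genes and medians by group between 29.2 M and 46.4 M. Gpt2 averaged 112 ± 36.3 CPM in fasted and 60.5 ± 11.3 CPM in fed knockout livers (SD, n = 6 each), against 697 ± 86.7 CPM in control fasted and 370.4 ± 51.9 CPM in control fed livers (SD, n = 5 each). All levels below are CPM scaled by TMM factors, and fold changes and their tests come from edgeR's quasi-likelihood fit over 16757 genes. The library left out was compared with the control fasted libraries by CPM without TMM factors. In it, 14 members lay above, 12 below and 21 within their range.

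All 47 members passed the filter on low counts and were tested. Compared per kilobase of exon, the levels over the 22 libraries were highest for Psmb1, a beta ring subunit, at 84.5 ± 7.86 CPM per kb (SD, n = 22). The lid subunit Psmd8 followed at 66.7 ± 9.20, and the beta ring subunits Psmb4 at 66.0 ± 9.49 and Psmb7 at 64.8 ± 8.02 CPM per kb (SD, n = 22 each). The gap between Psmb1 and Psmd8 was larger than either SD, and those between Psmd8, Psmb4 and Psmb7 were smaller. Lengths were those given in the files, and the annotation used for symbols holds longer forms of some members. Psmb7 has 1214 bases in the files and 3421 exon bases in that annotation. Psmb1 has 1036 bases in the files, and its annotated transcripts hold 4585 distinct 50-base sequences. This order and the medians by role therefore depend on the lengths used. By role, the median level per kilobase was 56.9 CPM in the 7 constitutive beta ring genes, 37.0 CPM in the 6 ATPases of the cap's base, 27.7 CPM in the 7 alpha ring genes and 18.9 CPM in the 8 lid genes. The 7 assembly chaperones had a median of 6.21 CPM per kb and the 3 immune beta genes one of 4.28 CPM per kb. Psmg3, a chaperone of core assembly, was the lowest member at 2.16 ± 0.619 CPM per kb (SD, n = 22).

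After fasting, 19 of the 47 proteasome genes were called, some higher and some lower, and the other 28 were not. Averaged over the genotypes, transcripts of the immune beta subunits Psmb8, Psmb9 and Psmb10 and of the PA28 genes Psme1, Psme2 and Psme2b were lower in fasted livers, by 0.44 to 1.31 on the log2 scale. Transcripts of 9 of the 17 cap genes, the base chaperone Psmd9, 2 ring genes and the activator Psme3 were higher, by 0.23 to 0.90 on the log2 scale. The calls, at an adjusted p under 0.05, were 13 higher and 6 lower, where 14.3% of all genes tested were called (7.08% higher and 7.26% lower). The members' median change was 0.10 on the log2 scale, against 0.01 over all genes tested. Without TMM factors (library totals only) the called members were 6 higher and 6 lower, and with the library that stood apart added they were 2 higher and 6 lower.

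Within the genotypes fewer members passed the test. Fasting in knockout livers called 5 members, 3 higher and 2 lower, where 6.14% of all genes were called (2.88% higher and 3.26% lower). Fasting in control livers called 8 members, 2 higher and 6 lower, where 8.12% of all genes were called (3.99% higher and 4.13% lower). Psmd9, Psmd4, Psmb9 and Psmb10 were called in both genotypes. The count in knockout livers was 9 with DESeq2 and 8 with limma voom, and 3 without knockout fed replicate 6. With library totals the split in control livers was 1 higher and 6 lower. With the library that stood apart added, Psmd9 alone was called in knockout livers, and 6 members, all lower, in control livers.

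**Figure D1:**
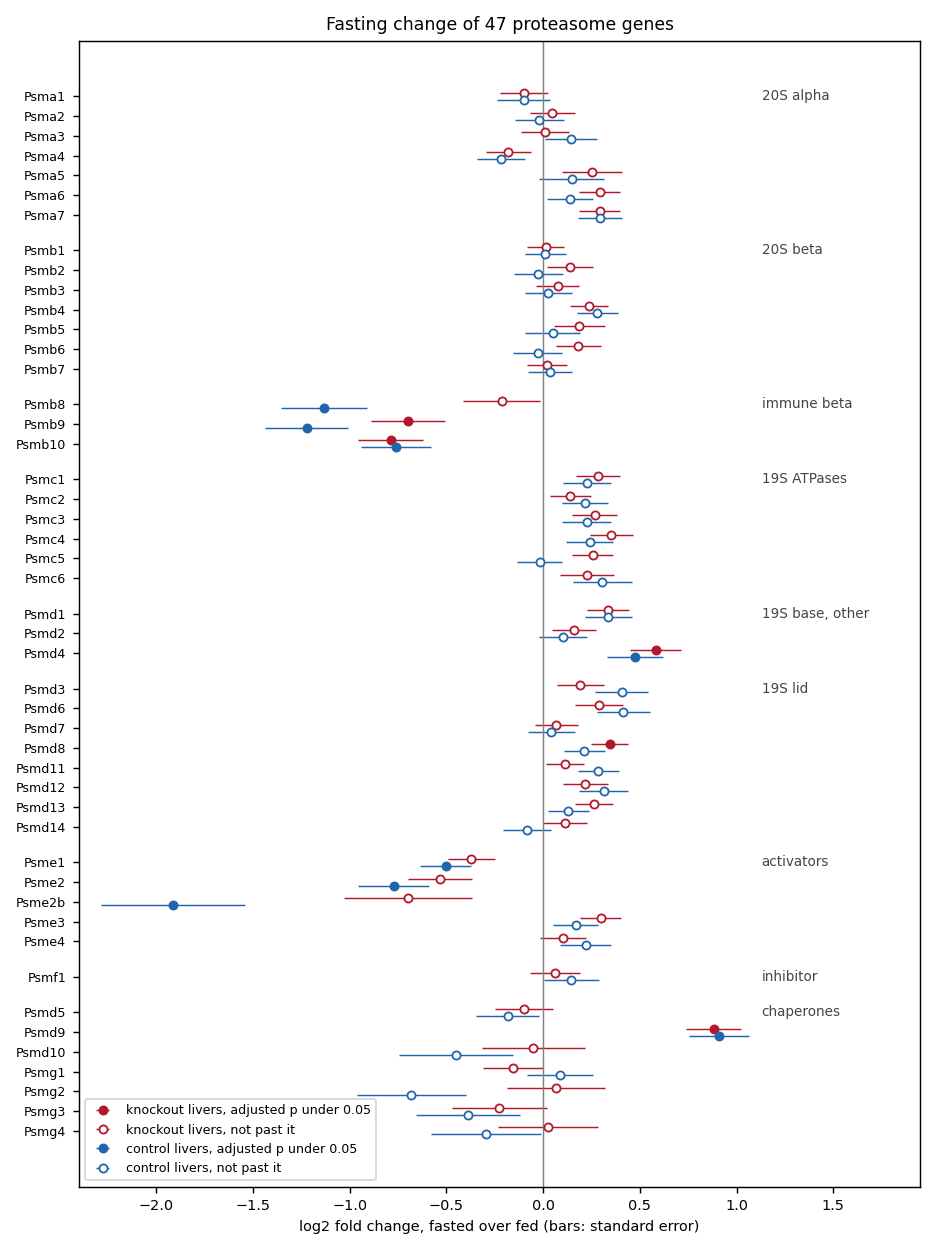
Log2 fold change of each of the 47 proteasome genes, fasted over fed, in knockout livers (red) and control livers (blue), grouped by role, with standard errors; filled points passed an adjusted p of 0.05. The immune beta genes and Psme1, Psme2 and Psme2b lie left of 0 in both genotypes, and Psmd9 and Psmd4 lie right of it with filled points in both.

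Psmb8, Psmb9 and Psmb10 encode the immune forms of the catalytic beta subunits, which take the places of Psmb5, Psmb6 and Psmb7 in newly built cores. Psmb10 (ENSMUSG00000031897, chr8:105935728-105938392 in GRCm38, reverse strand) had a lowest, median and highest level of 11.3, 14.5 and 22.3 CPM in knockout fasted livers, against 21.9, 26.6 and 31.7 CPM in knockout fed livers. Replicate 1 was the highest of the knockout fasted libraries and the only one inside the knockout fed range. After fasting, control livers held it at 12.5, 15.9, 15.4, 14.6 and 23.1 CPM, against 32.0, 36.2, 20.5, 22.8 and 26.6 CPM in the fed state. Here too 1 fasted library, replicate 6, reached into the fed range. The log2 fold change of Psmb10 was -0.79 ± 0.17 (SE, n = 6 and 6) in knockout livers, with an adjusted p of 0.00185 (edgeR's quasi-likelihood F-test, Benjamini-Hochberg adjusted). The change in control livers was -0.76 ± 0.18 (SE, n = 5 and 5), with an adjusted p of 0.00543 in the same edgeR test. No sequence of 50 bases in Psmb10 transcripts was shared with another gene of the annotation.

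Psmb9 (ENSMUSG00000096727, chr17:34181988-34187764, reverse strand) encodes the immune partner of Psmb6. Its lowest, median and highest levels were 5.45, 8.65 and 12.1 CPM in knockout fasted livers, against 11.1, 13.7 and 16.3 CPM in knockout fed livers. It stood at 6.47, 7.27, 5.36, 5.72 and 8.94 CPM in control fasted livers, against 12.6, 14.3, 18.1, 11.2 and 22.4 CPM in control fed livers. The groups did not overlap in control livers, and in knockout livers they overlapped through the highest fasted library, replicate 1. The log2 fold change was -0.70 ± 0.19 (SE, n = 6 and 6; adjusted p = 0.0213, edgeR) in knockout livers, and leaving out 1 of 4 libraries in turn (knockout fed replicate 2 or 6, knockout fasted replicate 4 or 6) ended that call. The control change was -1.22 ± 0.21 (SE, n = 5 and 5; adjusted p = 0.000164, edgeR).

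Psmb8 (ENSMUSG00000024338, chr17:34197721-34201454, forward strand), the immune counterpart of Psmb5, lies 9957 bp from Psmb9. In knockout livers its lowest, median and highest levels were 8.52, 9.38 and 17.0 CPM after fasting, against 8.16, 13.9 and 16.2 CPM in the fed state, and the groups overlapped throughout. Replicates 1 and 5 of the knockout fasted group held 14.5 and 17.0 CPM, and the other 4 held 8.52 to 9.61 CPM. In control livers Psmb8 stood at 4.62, 6.69, 6.38, 7.11 and 10.1 CPM after fasting, against 13.8, 13.8, 17.2, 13.0 and 18.8 CPM in the fed state, with no overlap. In control livers the log2 fold change was -1.13 ± 0.22 (SE, n = 5 and 5; adjusted p = 0.000677, edgeR). In knockout livers it was -0.21 ± 0.20 (SE, n = 6 and 6) with an adjusted p of 0.742, which did not pass. The test of the difference between these 2 changes gave 0.92 ± 0.30 on the log2 scale (SE; unadjusted p = 0.00415), which was not called after adjustment over all genes (adjusted p = 0.977, edgeR).

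Psme1 and Psme2 encode the alpha and beta subunits of PA28, a ring that opens the core without needing ubiquitin, and lie 5912 bp apart on chromosome 14. Psme1 (ENSMUSG00000022216, chr14:55578123-55581529, forward strand) had a lowest, median and highest level of 43.8, 52.8 and 65.2 CPM in knockout fasted livers, against 52.5, 70.0 and 93.1 CPM in knockout fed livers. It stood at 52.2, 61.0, 61.0, 66.7 and 60.4 CPM in control fasted livers, against 101, 91.7, 86.7, 78.9 and 69.4 CPM in control fed livers. The control groups were apart and the knockout groups overlapped. Its log2 fold change in control livers was -0.50 ± 0.13 (SE, n = 5 and 5; adjusted p = 0.0124, edgeR), a call that leaving out control fed replicate 1 ended. In knockout livers the change was -0.37 ± 0.12 (SE, n = 6 and 6; adjusted p = 0.0647, edgeR) and did not pass.

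Psme2 (ENSMUSG00000079197, chr14:55587441-55591113, reverse strand) had a lowest, median and highest level of 25.9, 30.8 and 43.7 CPM in knockout fasted livers, against 28.4, 47.7 and 59.4 CPM in knockout fed livers. Control livers held 21.4, 21.6, 31.4, 31.1 and 36.5 CPM after fasting, against 50.6, 47.3, 36.1, 63.9 and 45.1 CPM in the fed state. Control fasted replicate 6 lay just above control fed replicate 3, and the other control libraries were apart. The change was -0.77 ± 0.18 on the log2 scale in control livers (SE, n = 5 and 5; adjusted p = 0.00532, edgeR) and -0.53 ± 0.17 in knockout livers (SE, n = 6 and 6; adjusted p = 0.0515, edgeR).

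Psme2b (ENSMUSG00000078153, chr11:48945354-48946190, reverse strand) is a near copy of Psme2, so how the counting split their reads is uncertain. Of its distinct 50-base sequences 68.7% also occur in Psme2, and 28.3% of those of Psme2 occur in Psme2b. Psme2b had a lowest, median and highest level of 1.19, 2.5 and 3.42 CPM in knockout fasted livers, against 2.77, 3.15 and 5.75 CPM in knockout fed livers. It stood at 1.93, 0.896, 1.22, 1.35 and 0.867 CPM in control fasted livers, against 6.38, 2.73, 4.35, 3.31 and 6.94 CPM in control fed livers, with no overlap. The log2 fold change in control livers was -1.91 ± 0.37 (SE, n = 5 and 5; adjusted p = 0.000604, edgeR), on as few as 17 reads in a library. In knockout livers the change was -0.70 ± 0.33 (SE, n = 6 and 6; adjusted p = 0.278, edgeR) and was not called. When the reads of Psme2 and Psme2b were summed, the pair changed by -0.54 on the log2 scale in knockout livers with an adjusted p of 0.0315 in edgeR, so that this call was then made in both genotypes.

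**Figure D2:**
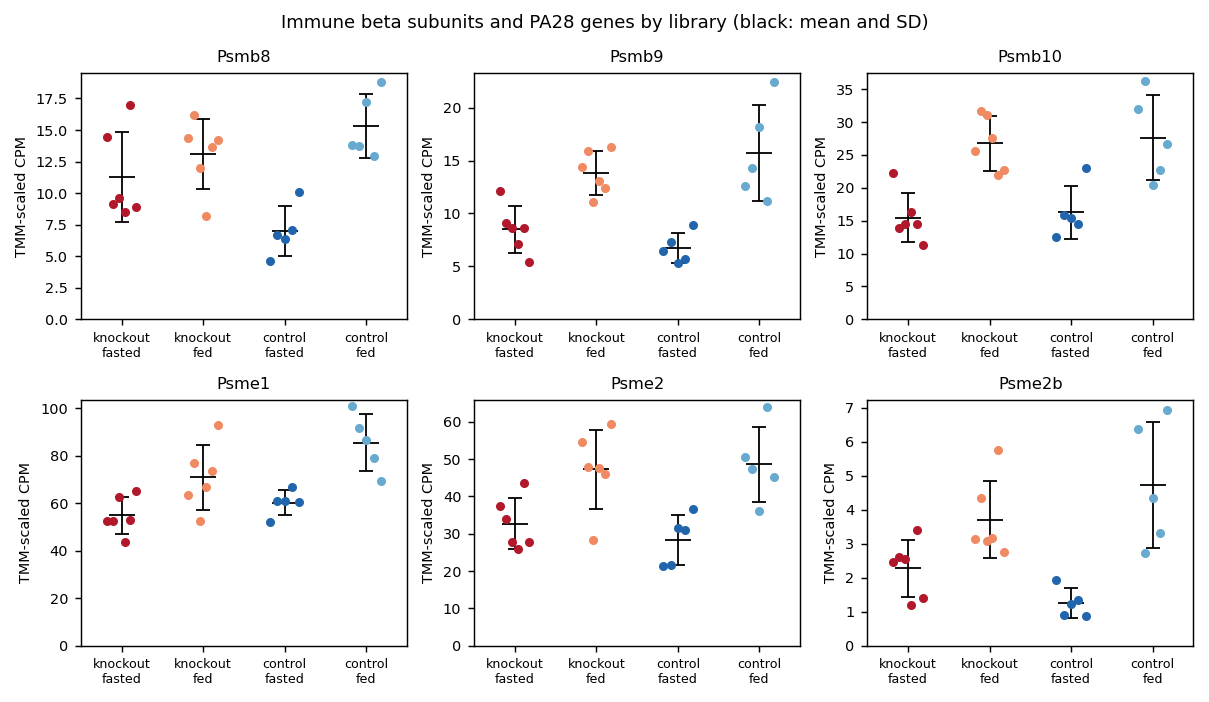
Levels of the 3 immune beta genes and the 3 PA28 genes in TMM-scaled CPM (axes start at 0), 1 point a library, in knockout fasted, knockout fed, control fasted and control fed livers from left to right; black lines give the mean and SD. Control fasted points lie below control fed points for Psmb8, Psmb9, Psme1 and Psme2b without overlap, while Psmb8 in knockout fasted livers has 2 libraries, at 14.5 and 17.0 CPM, among the fed values.

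Of the remaining activators 1 was called. Psme3, which forms a nuclear activator ring of its own, was higher after fasting by 0.23 ± 0.08 on the log2 scale averaged over the genotypes (SE; adjusted p = 0.0425, edgeR), and leaving out any of 12 of the 22 libraries in turn, library totals, the added library or no filter ended the call. Psme4, a large activator of the core, changed by 0.16 ± 0.09 (SE; adjusted p = 0.276, edgeR). Per kilobase, Psme1 stood at 142 ± 22.4% of Psme3 in knockout fasted and 229 ± 62.0% in knockout fed livers (SD, n = 6 each). The share was 156 ± 6.21% in control fasted and 253 ± 56.5% in control fed livers (SD, n = 5 each), with no overlap between the fasted and fed libraries of either genotype. Psmf1, an inhibitor of the isolated core, stood at a lowest, median and highest level of 22.2, 27.4 and 30.3 CPM in knockout fasted livers, against 21.3, 26.5 and 29.4 CPM in knockout fed livers. In control livers it held 25.4, 27.1, 24.0, 27.5 and 23.6 CPM after fasting, against 26.8, 25.9, 24.0, 15.3 and 23.4 CPM in the fed state. These ranges overlapped, and the averaged change was 0.10 ± 0.10 on the log2 scale (SE; adjusted p = 0.591, edgeR).

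The immune and constitutive catalytic subunits were set against each other as the ratio of their levels per kilobase. The size of these percents depends on the lengths given in the files, while their comparison between fasted and fed livers does not. Psmb5, Psmb6 and Psmb7 carry the constitutive protease sites, and their averaged changes with fasting were 0.12 ± 0.10, 0.08 ± 0.09 and 0.03 ± 0.08 on the log2 scale (SE), none of them called. Of the 50-base sequences of Psmb5, 54.1% also occur elsewhere in the annotation. The sign of the Psmb7 change turned with library totals. Psmb9 stood at 4.27 ± 1.44% of Psmb6 in knockout fasted and at 7.53 ± 0.501% in knockout fed livers (SD, n = 6 each). The control shares were 3.05 ± 0.582% after fasting and 7.16 ± 2.64% in the fed state (SD, n = 5 each). Neither genotype had a fasted library above its lowest fed library.

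Psmb10 amounted to 19.9 ± 4.61% of Psmb7 in knockout fasted and 35.1 ± 6.65% in knockout fed livers (SD, n = 6 each). The corresponding shares were 18.3 ± 3.47% in control fasted and 32.0 ± 7.57% in control fed livers (SD, n = 5 each). The knockout groups overlapped by 1 library and the control groups were apart. Psmb8 amounted to 8.60 ± 2.16% of Psmb5 in knockout fasted and 11.6 ± 2.56% in knockout fed livers (SD, n = 6 each), with overlap. It amounted to 5.06 ± 1.32% in control fasted livers, 3.64 to 7.12%, against 12.3 ± 4.55% in control fed livers, 7.88 to 18.0% (SD, n = 5 each). Summed, the immune beta genes held 35.2 ± 8.12 CPM in knockout fasted and 53.7 ± 5.65 CPM in fed knockout livers (SD, n = 6 each). The sum was 30.0 ± 7.11 CPM in control fasted and 58.6 ± 8.05 CPM in control fed livers (SD, n = 5 each). These sums and ratios were not tested, since their members were chosen with results of these data known.

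**Figure D3:**
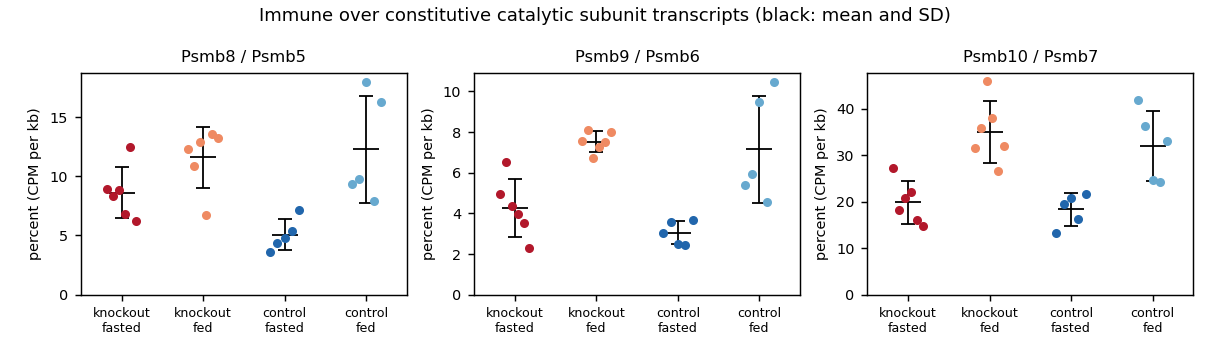
Level per kilobase of each immune catalytic subunit as a percent of its constitutive counterpart (axes start at 0), 1 point a library, in knockout fasted, knockout fed, control fasted and control fed livers from left to right, with mean and SD in black. All 3 control panels have the fasted points below the fed points, and in knockout livers this holds for Psmb9 over Psmb6 alone, at 2.27 to 6.55% fasted and 6.74 to 8.10% fed.

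Genes that share interferon-responsive control with the immune subunits were described as a list of 16, all tested, that holds antigen-processing genes and interferon targets. Averaged over the genotypes 6 of the 16 were lower and 1 higher after fasting, where 7.26% of all genes tested were lower and 7.08% higher, with a median change of -0.26 on the log2 scale against 0.01 over all genes tested. Bst2, an interferon-induced membrane protein, had the smallest p. It held 46.9 ± 9.95 CPM in knockout fasted and 86.2 ± 16.5 CPM in fed knockout livers (SD, n = 6 each), and 49.7 ± 7.84 CPM in control fasted and 103.6 ± 13.4 CPM in control fed livers (SD, n = 5 each). Its averaged log2 fold change was -0.97 ± 0.10 (SE; adjusted p = 4.74e-09, edgeR).

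Tapbp, the tapasin that loads peptides onto class I molecules, changed by -0.54 ± 0.08 (SE; adjusted p = 9.76e-06, edgeR). Gbp7, a guanylate-binding protein, changed by -0.96 ± 0.15 (SE; adjusted p = 1.2e-05, edgeR), and Irf1, a transcription factor of the interferon response, by -0.47 ± 0.11 (SE; adjusted p = 0.0022, edgeR). The gene that was higher, picked out after its values were seen, was Nlrc5, an activator of class I genes, at 0.48 ± 0.12 (SE; adjusted p = 0.00481, edgeR). H2-K1 and H2-D1, the class I heavy chains, changed by -0.00254 and 0.0133 on the log2 scale and were not called.

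Tap1, the peptide transporter gene on the opposite strand of the Psmb9 locus, shares 212 exon bases with Psmb9, 5.79% of the Psmb9 exons, and had 200.7% as many reads. It changed by -0.22 ± 0.13 averaged over the genotypes (SE; adjusted p = 0.356, edgeR), and since no source used here gives the strand setting of the counting, reads in the shared stretch cannot be assigned. Leukocytes also express the immune subunits. None of 10 leukocyte markers was called for fasting, and their summed level ranged from 60.4 to 128 CPM in knockout fasted, 73.0 to 146 CPM in knockout fed, 61.3 to 76.0 CPM in control fasted and 69.3 to 125 CPM in control fed livers. None of 6 Kupffer cell and macrophage markers was called either, with sums of 96.0 to 211 CPM in knockout fasted, 133 to 211 CPM in knockout fed, 91.0 to 115 CPM in control fasted and 105 to 169 CPM in control fed livers. The median change of the macrophage list with fasting was 0.13 on the log2 scale in knockout livers and -0.40 in control livers. That of the leukocyte list was -0.07 in knockout livers and -0.26 in control livers. No gene of either marker list was at 0 in all libraries. The leukocyte genes Cd3e, Cd3g, Cd2, Cd79a, Itgax and Nkg7 had medians of only 0.0857 to 0.879 CPM. A change in genes this low is hard to call. Cd74, at a median of 41.3 CPM, was the highest of the leukocyte list.

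Some markers of other cell types did change with fasting, averaged over the genotypes. Of 5 stellate cell genes the collagens Col3a1 and Col1a1 were lower, at -1.39 and -0.96 on the log2 scale. Dcn, Des and Lrat, at -0.05, -0.003 and -0.33, were not called. The stellate list summed to 62.0 to 101 CPM in knockout fasted and 89.85 to 119.7 CPM in knockout fed livers. Its sums were 50.8 to 84.8 CPM in control fasted and 78.6 to 107 CPM in control fed livers. Of 5 endothelial genes Lyve1 and Stab2 were higher, at 1.14 and 0.38. Pecam1, Kdr and Clec4g, at 0.18, 0.18 and -0.009, were not called. The endothelial list summed to 121 to 190.5 CPM in knockout fasted and 121 to 176 CPM in knockout fed livers. Its sums were 109.9 to 144 CPM in control fasted and 83.5 to 126 CPM in control fed livers. Of 6 exocrine pancreas genes 2 were tested and Cela1 was lower, at -1.97, while Pnlip was at 0 in every library. That list summed to 5.97 to 8.29 CPM in knockout fasted and 11.75 to 29.9 CPM in knockout fed livers. Its sums were 3.43 to 8.48 CPM in control fasted and 27.2 to 39.8 CPM in control fed livers. In both genotypes the fasted libraries lay below the fed ones. These sums largely follow Cela1, at a median of 10.1 CPM over the libraries, beside 0.375 CPM for Cela2a. Cpa1, Prss2 and Ctrb1 had medians of 0, so the sums show little beyond this 1 gene. Of 4 cholangiocyte genes Krt19 was lower, at -2.07, with a median level of 0.667 CPM. Sox9, the highest of the list at a median of 7.57 CPM, changed by 0.46 and was not called. Krt7 and Epcam, at -0.45 and -0.16, were not called either. The cholangiocyte list summed to 6.29 to 23.3 CPM in knockout fasted and 4.78 to 14.4 CPM in knockout fed livers. Its sums were 6.2 to 17.1 CPM in control fasted and 7.63 to 34.1 CPM in control fed livers. Of 5 hepatocyte genes Apoa1 was higher, at 0.61, and Ttr lower, at -0.38, and none of 4 erythroid genes was called. The part of any of these cell types in the changes of the proteasome genes was not tested.

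Of the 17 genes of the 19S cap 9 were called higher after fasting averaged over the genotypes, where 7.08% of all genes were, and 8 were not called. All 17 changes were above 0, as were 51% of those of all genes tested, with a median of 0.25 on the log2 scale. Within the genotypes 2 of the 17 (11.8%) were called higher in knockout livers, where 2.88% of all genes were. In control livers 1 of the 17 (5.88%) was called higher, near the 3.99% of all genes. Of the 14 constitutive ring genes 12 were positive and 2 were called, with a median of 0.07. Summed over the 31 constitutive genes of ring and cap, the level was 2281 ± 259.5 CPM in knockout fasted and 1990.0 ± 142 CPM in fed knockout livers (SD, n = 6 each), and 2503 ± 139 CPM in control fasted and 2226 ± 115 CPM in control fed livers (SD, n = 5 each). The cap genes alone summed to 1430.0 to 1660.0 CPM in control fasted libraries, against 1228 to 1375 CPM in control fed ones, without overlap. In knockout livers the cap sums were 1153 to 1556 CPM after fasting, against 974 to 1237 CPM in the fed state, with overlap.

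Psmd9 (ENSMUSG00000029440, chr5:123228190-123250131, forward strand) encodes a chaperone that helps assemble the ATPase ring of the cap's base, and it had the largest increase of the 47 members in either genotype. Its lowest, median and highest levels were 39.8, 50.3 and 75.7 CPM in knockout fasted livers, against 24.7, 30.2 and 31.8 CPM in knockout fed livers. It stood at 59.7, 66.5, 66.7, 69.6 and 48.0 CPM in control fasted livers, against 38.2, 42.5, 23.9, 28.1 and 32.5 CPM in control fed livers. In both genotypes every fasted library lay above every fed library. The log2 fold change was 0.88 ± 0.14 in knockout livers (SE, n = 6 and 6; adjusted p = 5.69e-05, edgeR) and 0.91 ± 0.16 in control livers (SE, n = 5 and 5; adjusted p = 0.000134, edgeR), 1.84-fold and 1.88-fold. The antisense gene Gm26745 overlaps 25.5% of the Psmd9 exon bases and had 1.48% as many reads.

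The other 6 assembly chaperones were not called. Psmd5 and Psmd10, which act with Psmd9 on the base, changed by -0.14 ± 0.11 and -0.25 ± 0.20 on the log2 scale averaged over the genotypes (SE). The core chaperones Psmg1, Psmg2, Psmg3 and Psmg4 lay between -0.31 and -0.03. All 6 averaged values were negative beside the positive Psmd9, where 51% of all genes tested were above 0. Within the genotypes the sign was not uniform. Psmg2 and Psmg4 were above 0 in knockout livers, at 0.07 and 0.02, and Psmg1 in control livers, at 0.09.

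Psmd4 (ENSMUSG00000005625, chr3:95032694-95042614, reverse strand) encodes the ubiquitin receptor that sits between base and lid. It had a lowest, median and highest level of 91.6, 127 and 166 CPM in knockout fasted livers, against 68.6, 86.2 and 103 CPM in knockout fed livers. In control livers it stood at 128, 171, 134, 177 and 158 CPM after fasting, against 109.8, 130.4, 112, 95.6 and 105 CPM in the fed state. The control groups overlapped by 1 library, fed replicate 2, and the knockout groups overlapped in the low part of the fasted range. Its log2 fold change was 0.58 ± 0.13 in knockout livers (SE, n = 6 and 6; adjusted p = 0.00374, edgeR). The control change was 0.47 ± 0.14 (SE, n = 5 and 5; adjusted p = 0.0335, edgeR); that call ended with library totals (adjusted p = 0.0864), with voom weights (0.0817) and when any of 7 of the 22 libraries was left out, control fed replicates 1, 3, 4 and 5 and control fasted replicates 2, 5 and 6.

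Psmd8 (ENSMUSG00000030591, chr7:29174188-29180701, reverse strand), a lid subunit, was the third member called higher in knockout livers. Its lowest, median and highest levels there were 99.6, 114 and 134 CPM after fasting, against 86.7, 92.0 and 95.8 CPM in the fed state, with no overlap. Control livers held it at 99.3, 115, 111, 121 and 96.2 CPM after fasting, against 82.6, 107, 93.9, 95.2 and 89.5 CPM in the fed state, where fed replicate 2 lay inside the fasted range. The log2 fold change was 0.34 ± 0.10 in knockout livers (SE, n = 6 and 6; adjusted p = 0.0231, edgeR), a call that ended with library totals, with no filter and without knockout fed replicate 6 or knockout fasted replicate 1 or 4. That in control livers was 0.21 ± 0.11 (SE, n = 5 and 5) and not called. Averaged over the genotypes it was 0.28 ± 0.07 (SE; adjusted p = 0.00557, edgeR).

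Psmd1, a large scaffold of the base, had a lowest, median and highest level of 62.8, 90.8 and 105 CPM in knockout fasted livers, against 54.4, 73.5 and 80.5 CPM in knockout fed livers. It stood at 104, 106, 92.4, 100.2 and 83.7 CPM in control fasted livers, against 81.1, 77.5, 70.9, 80.6 and 74.8 CPM in control fed livers. The control groups did not overlap and the knockout groups did. The averaged change was 0.34 ± 0.08 on the log2 scale (SE; adjusted p = 0.00355, edgeR).

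Psmd6, a lid subunit, had a lowest, median and highest level of 37.8, 46.6 and 58.7 CPM in knockout fasted livers, against 29.5, 38.4 and 43.8 CPM in knockout fed livers. It stood at 45.7, 47.4, 53.4, 52.8 and 47.4 CPM in control fasted livers, against 43.8, 37.4, 25.2, 38.3 and 40.3 CPM in control fed livers. As with Psmd1, the groups were apart in control livers and overlapped in knockout livers. The averaged change was 0.35 ± 0.09 on the log2 scale (SE; adjusted p = 0.0077, edgeR).

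Of the ATPases, Psmc4 had the smallest p. Its lowest, median and highest levels were 77.7, 81.6 and 111 CPM in knockout fasted livers, against 52.3, 65.4 and 85.3 CPM in knockout fed livers. In control livers Psmc4 stood at 84.0, 107, 82.4, 82.6 and 94.7 CPM after fasting, against 70.5, 84.8, 77.3, 76.2 and 72.6 CPM in the fed state. The groups overlapped in both genotypes, in control livers through fed replicate 2. The averaged change was 0.30 ± 0.08 on the log2 scale (SE; adjusted p = 0.0117, edgeR).

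In the core, Psma7 of the alpha ring and Psmb4 of the beta ring were called. Psma7 had a lowest, median and highest level of 78.2, 93.0 and 104 CPM in knockout fasted livers, against 65.1, 74.7 and 82.0 CPM in knockout fed livers. It stood at 92.6, 89.8, 96.5, 94.0 and 114 CPM in control fasted livers, against 82.7, 97.5, 70.9, 75.2 and 71.3 CPM in control fed livers. Both genotypes overlapped, in control livers through fed replicate 2, and the averaged change was 0.29 ± 0.08 (SE; adjusted p = 0.00747, edgeR; 0.0519 with library totals).

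Psmb4 ranged over 80.2, 91.9 and 106 CPM (lowest, median, highest) in knockout fasted livers, against 72.2, 75.7 and 88.9 CPM in knockout fed livers. It stood at 106, 109.8, 100.2, 99.9 and 122 CPM in control fasted livers, against 96.4, 93.1, 79.2, 89.7 and 84.2 CPM in control fed livers, where the groups were apart. The averaged change was 0.26 ± 0.07 (SE; adjusted p = 0.0113, edgeR; 0.0665 with library totals). The lowest averaged change among the ring genes was that of Psma4 at -0.20 ± 0.08 (SE; adjusted p = 0.126, edgeR).

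The remaining called members were the lid genes Psmd3 and Psmd12 at 0.30 and 0.27 and the ATPases Psmc1 and Psmc3 at 0.25 each on the log2 scale, with adjusted p-values of 0.0222, 0.031, 0.0349 and 0.0496 in edgeR's quasi-likelihood test. The calls of all 4 ended with library totals and with the library that stood apart added. That of Psmc3 also ended with RLE factors, no filter, DESeq2, voom with sample weights and a random block on title numbers. Leaving out 1 library ended the call of Psmc3 for 17 of the 22 libraries, of Psmc1 for 8, of Psmd12 for 5 and of Psmd3 for none. Psmd14, the deubiquitinase of the lid, and the lid subunit Psmd7 had the smallest changes of the cap, 0.01 ± 0.08 and 0.06 ± 0.08 (SE), and were not called.

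**Figure D4:**
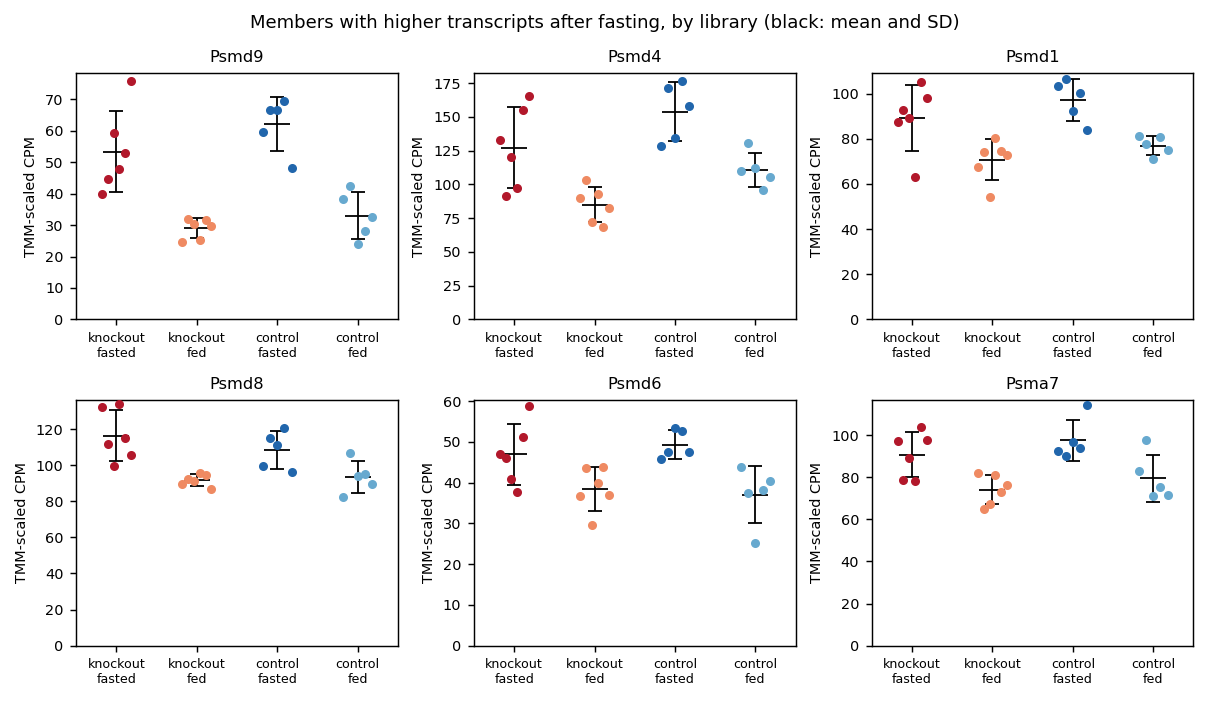
Levels of the 6 members with the smallest p among those higher after fasting, in TMM-scaled CPM (axes start at 0), 1 point a library, in knockout fasted, knockout fed, control fasted and control fed livers from left to right, with mean and SD in black. Psmd9 is the member whose fasted and fed points are apart in both genotypes, from 39.8 CPM upward in knockout fasted and to at most 31.8 CPM in knockout fed livers.

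The sequences upstream of the 4 members called in both genotypes show which short motifs their start sites carry. RefSeq promoter windows on GRCm38.p6 were found for 40 of the 47 members, and the 250 bases before the start were searched on both strands. Capitals mark the letters CCAAT, a box bound by NF-Y; GAAANNGAAA, a core that interferon regulatory factors bind; and TGACNNNGC, a core of antioxidant response elements that NFE2L1 and NFE2L2 bind. The windows were chr17:34187331-34187580 for Psmb9, chr8:105938393-105938642 for Psmb10 and chr3:95042615-95042864 for Psmd4, all on the reverse strand, and chr5:123227940-123228189 on the forward strand for Psmd9. The Psmb9 start in RefSeq lies 434 bases from the gene's start in the files, and the other 3 starts are the same. The Psmb9 window is thus upstream of the RefSeq start but lies inside the gene as counted in the files.
Psmb9: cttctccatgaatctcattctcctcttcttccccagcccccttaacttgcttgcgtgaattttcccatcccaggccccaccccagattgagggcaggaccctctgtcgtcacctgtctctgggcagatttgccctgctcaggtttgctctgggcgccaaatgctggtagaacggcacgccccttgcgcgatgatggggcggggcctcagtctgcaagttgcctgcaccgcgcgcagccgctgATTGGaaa
Psmb10: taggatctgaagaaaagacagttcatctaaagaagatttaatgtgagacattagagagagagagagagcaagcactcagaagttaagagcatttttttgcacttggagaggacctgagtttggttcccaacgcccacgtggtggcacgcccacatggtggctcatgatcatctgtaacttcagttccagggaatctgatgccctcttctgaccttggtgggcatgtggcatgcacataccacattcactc
Psmd4: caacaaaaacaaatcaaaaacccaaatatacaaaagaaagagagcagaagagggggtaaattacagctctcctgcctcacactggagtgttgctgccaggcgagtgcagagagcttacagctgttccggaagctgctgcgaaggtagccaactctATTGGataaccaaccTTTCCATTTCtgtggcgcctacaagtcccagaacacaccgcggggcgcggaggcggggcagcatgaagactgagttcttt
Psmd9: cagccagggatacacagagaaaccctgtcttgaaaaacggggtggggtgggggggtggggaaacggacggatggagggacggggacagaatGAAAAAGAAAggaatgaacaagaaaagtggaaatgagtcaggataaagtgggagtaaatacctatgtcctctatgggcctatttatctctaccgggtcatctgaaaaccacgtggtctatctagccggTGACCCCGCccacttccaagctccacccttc
None of these motifs was in the Psmb10 window, and that of Psmb9 held a CCAAT box 8 to 4 bases before the start. The Psmd4 window held a CCAAT box and a GAAANNGAAA match, both on the opposite strand, at 95 to 91 and 80 to 71 bases before the start. The Psmd9 window held a GAAANNGAAA match at 159 to 150 and a TGACNNNGC match at 31 to 23 bases before the start. GAAANNGAAA was in the windows of 3 of the 40 members (Psmb3, Psmd4 and Psmd9) and in 2.98% of the 32851 RefSeq windows. TGACNNNGC was in those of 5 (Psmb5, Psmb6, Psmc6, Psmd12 and Psmd9) and in 10.2% of all windows, and CCAAT in 13 members' windows and 33.8% of all windows. TTCNNNGAA, a STAT core, was in the windows of Psmb8 and Psmg1 and in 7.02% of all windows. A match is a run of letters and not a site shown to be bound.

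Lists of related genes were read beside the members, averaged over the genotypes. Of 14 tested proteasome partners 3 were called, 21.4% beside 14.3% of all genes tested. The ubiquitin receptor Adrm1 changed by 0.28 ± 0.09 (SE; adjusted p = 0.0304, edgeR). Zfand5, a proteasome-binding protein known for muscle wasting, changed by 0.37 ± 0.11 (SE; adjusted p = 0.0139, edgeR). Zfand5 stood at 31.3 to 50.25 CPM in knockout fasted and 29.5 to 51.3 CPM in knockout fed livers. Its control levels were 31.4 to 49.1 CPM after fasting and 19.5 to 34.7 CPM in the fed state. Within the genotypes, 0 of the 14 partners were called in knockout livers, beside 6.14% of all genes. In control livers 1 (7.14%) was called, beside 8.12% of all genes. Pomp, the maturation factor of new cores, held 49.7 ± 7.01 CPM in knockout fasted and 56.3 ± 11.6 CPM in fed knockout livers (SD, n = 6 each), and 47.8 ± 2.01 CPM in control fasted and 63.1 ± 9.05 CPM in control fed livers (SD, n = 5 each). Its averaged change was -0.29 ± 0.09 (SE; adjusted p = 0.026, edgeR), below 0 like 6 of the 7 assembly chaperones.

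NFE2L1 is the transcription factor known for raising proteasome genes when proteasome activity falls short. Of 11 genes of its control and processing 1 was called, 9.09% beside 14.3% of all genes: Nploc4, a cofactor of the segregase that extracts it from the membrane, at 0.23 ± 0.08 (SE; adjusted p = 0.0485, edgeR). Nfe2l1 itself changed by 0.15 ± 0.07 (SE; adjusted p = 0.212, edgeR). Of 6 ubiquitin and activating-enzyme genes 1 was called, 16.7%, the ubiquitin gene Ubb, at 309 ± 32.6 CPM in knockout fasted and 223 ± 24.4 CPM in fed knockout livers (SD, n = 6 each). In control livers Ubb held 298 ± 32.2 CPM after fasting and 232 ± 45.9 CPM in the fed state (SD, n = 5 each), and its averaged change was 0.42 ± 0.08 (SE; adjusted p = 0.000414, edgeR).

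Among 15 genes of lysosomal proteases and autophagy 4 were higher and 1 lower after fasting, where 7.08% of all genes were higher and 7.26% lower. Map1lc3a, a protein of autophagosome membranes, changed by 0.70 ± 0.10 (SE; adjusted p = 2.51e-06, edgeR), Map1lc3b by 0.30 ± 0.08 (SE; adjusted p = 0.00947, edgeR) and the cargo receptor Sqstm1 by 0.26 ± 0.07 (SE; adjusted p = 0.0103, edgeR). Of the protease genes, Ctsl, named after its values were seen, changed by 0.29 ± 0.08 (SE; adjusted p = 0.0106, edgeR). Ctsb changed by -0.31 ± 0.07 (SE; adjusted p = 0.00145, edgeR), and the proteases Ctsd and Ctsh were not called. The median change was 0.13 in this list, 0.07 in the partners, 0.13 in the NFE2L1 list and -0.01 in the ubiquitin list, against 0.01 over all genes tested.

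Between the genotypes no proteasome gene was called. In fed livers 0 of 47 members passed, where 0.00597% of all genes did, and 8 of 47 (17%), beside 9.01% of all genes, had an unadjusted p under 0.05 in edgeR's quasi-likelihood test, while DESeq2 and limma voom called 0. Values below 0, that is lower in knockout, were found for 41 of 47 members and for 28 of the 31 constitutive ring and cap genes. Of all genes tested 50.4% were above 0. The median was -0.15 on the log2 scale over the members and 0.00294 over all genes tested. With library totals 25 of the 31 were below 0.

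Psmc5, an ATPase of the base, had the smallest p in fed livers. It had a lowest, median and highest level of 39.9, 44.6 and 52.1 CPM in knockout fed livers, against 62.2, 62.8, 52.7, 49.9 and 65.4 CPM in control fed livers. Control replicates 3 and 4 lay near the knockout maximum and the other 3 above it, so the groups overlapped through replicate 4. The log2 fold change was -0.36 ± 0.11 (SE, n = 6 and 5; adjusted p = 0.27, edgeR), not called.

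In fasted livers 0 of 47 members passed, where 0.00597% of all genes did, with 5 (10.6%, beside 4.01% of all genes) at an unadjusted p under 0.05 in edgeR and 0 called by DESeq2 or limma voom. The constitutive genes were below 0 in 28 of 31 cases, with a median of -0.12, and in 18 of 31 once the library that stood apart was added. Of all 47 members 32 were below 0. Among all genes tested 51.3% were above 0, with a median of 0.00866. Psmb8 had the smallest p, at 0.69 ± 0.21 on the log2 scale (SE, n = 6 and 5; adjusted p = 0.89, edgeR). Its knockout fasted levels of 8.52 to 17.0 CPM overlapped the control fasted levels of 4.62 to 10.1 CPM.

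Averaged over the feeding states 0 of 47 members passed, where 0.0358% of all genes did (0.0298% higher and 0.00597% lower), and 14 (29.8%, beside 8.71% of all genes) had an unadjusted p under 0.05 in edgeR. The smallest p was that of the beta ring gene Psmb3, at -0.29 ± 0.08 (SE; adjusted p = 0.253, edgeR). It stood at 45.2 to 61.5 CPM in knockout fasted and 46.2 to 58.3 CPM in knockout fed livers, against 55.6 to 74.7 CPM in control fasted and 51.8 to 78.0 CPM in control fed livers. The interaction of genotype and feeding called 0 of 47 members, where 0.00597% of all genes were called, and 2 members, Psmb8 and Psme2b (4.26%, beside 4.69% of all genes), had an unadjusted p under 0.05 in edgeR. DESeq2 and limma voom called 0 in both.

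**Figure D5:**
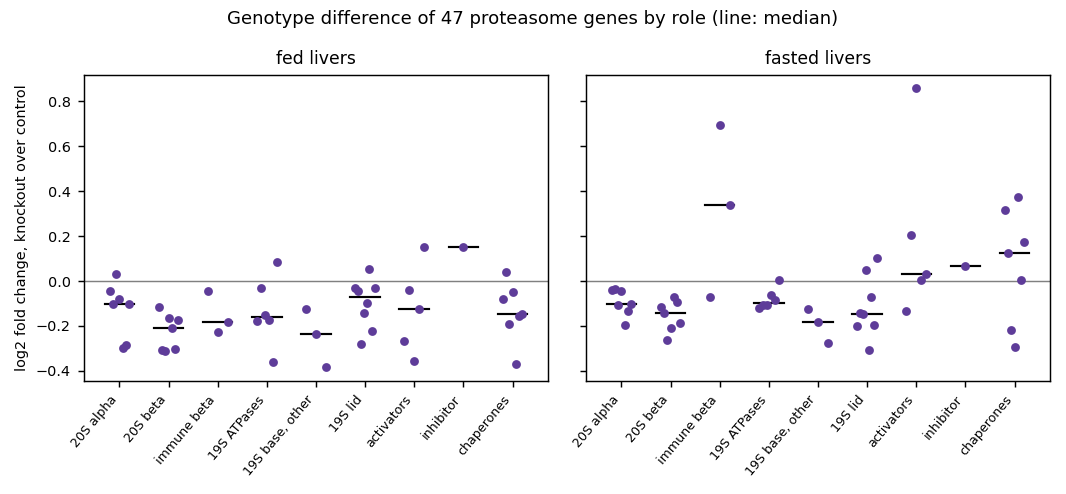
Log2 fold change of the 47 proteasome genes, knockout over control, in fed livers (left panel) and fasted livers (right panel), 1 point a gene, grouped by role, with the median of each role as a line. Most points of the ring and cap roles lie below 0 in both panels, down to -0.38, and none of the 47 was called in either.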

How the data were processed

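RNA-seq counts of 24 labelled mouse liver libraries were analysed. Raw counts were deposited for each gene; the submitters' processing notes name STAR 2.5.1a, Subread with featureCounts 1.4.6-p5, bcl2fastq and GRCm38. The deposited CPM and RPKM were, when recomputed from the counts, plain counts over the library total and that value per kilobase, and served as a check, RPKM also as an alternative for the ratios. No source used here gives the strand setting or the annotation release. Symbols came from GENCODE M21, which held 97.5% of the genes. The truncated file of control fed replicate 6 and the library labelled control fasted replicate 4 were left out, and in all 50 pairs of libraries of a group the counts differed by more than sampling noise (chi-square per degree of freedom 37.4 to 323).

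Counts of 22 libraries entered 1 robust quasi-likelihood fit of the 4 groups without covariates in edgeR 4.0.16 (R 4.3.3; TMM factors; filterByExpr by group, minimum count 10, minimum total 15). Adjusted p-values are Benjamini-Hochberg over 16757 genes, called under 0.05, and SE is the log2 fold change over the square root of F. Levels per library and full statistics were given for members called in any contrast (where more than 12 passed, the 6 smallest p in each direction), the smallest p of each role for averaged fasting, and the catalytic and PA28 genes. For each list of other genes up to 4 called genes of smallest p were named. The members and lists were chosen with earlier results of these data known. Alternatives were 23 libraries, RLE factors, library totals, no filter, a minimum mean CPM of 1, sample-weighted voom in limma 3.58.1, DESeq2 1.42.0, a random block on clusters of title numbers, only the groups compared, each library left out and, chosen after seeing the data, reads of Psme2 and Psme2b summed.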

Additional observations from a re-analysis of the deposited data

Results flagged for a closer look

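Of 124 groups of libraries examined, over 23 members and 8 sums or ratios, 4 had a library whose gap to its nearest neighbour was too large a share of the group's range by Dixon's criterion. Chance flags about 1 in 20 groups. Psma7 stood at 114.36 CPM in control fasted replicate 6, with the other 4 libraries at 89.8 to 96.5 CPM. Psmc4 stood at 110.94 CPM in knockout fasted replicate 6, with the other 5 at 77.7 to 87.3 CPM. The summed level of the 17 cap genes was 1375 CPM in control fed replicate 2, with the other 4 at 1228 to 1260.0 CPM. Psme1 stood at 352.8% of Psme3 per kilobase in knockout fed replicate 6, with the other 5 at 184 to 221%. The averaged fasting calls of Psma7, Psmc4 and Psme1 held without these libraries.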

How the results depend on the processing

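The titles carry a different number for each library, so the libraries form no numbered pairs. A random block on 10 clusters of neighbouring title numbers, fitted in limma voom, had a correlation of -0.0128 and gave 5, 8 and 18 called members for fasting in knockout, in control and averaged, against 5, 8 and 19 in edgeR with no block. Adding the library that stood apart gave 1 called member for fasting in knockout livers and 8 averaged, and a log2 change of the summed constitutive genes of 0.0467 in control livers, against 0.17 without it. DESeq2 called 9 and voom with sample weights 8 members for fasting in knockout livers. Library totals called 12 averaged. Leaving out each library gave 3 to 7 called members for fasting in knockout livers (3 without knockout fed replicate 6), 7 to 11 in control livers and 15 to 22 averaged; no alternative run called a member between the genotypes or for the interaction. The Psmb7 change averaged over the genotypes was -0.00676 to 0.0593 over the left-out libraries, and negative with the added library (-0.035), with library totals (-0.00428) and without control fasted replicate 6. Leaving out libraries gave log2 changes of the summed constitutive genes of 0.151 to 0.238 in knockout and 0.145 to 0.194 in control livers; of Psmb8 over Psmb5 of -0.579 to -0.345 and -1.38 to -1.08; of Psmb9 over Psmb6 of -1.02 to -0.72 and -1.32 to -1.02; and of Psmb10 over Psmb7 of -0.93 to -0.749 and -0.886 to -0.682. Where no cause is given it was not tested. Fits of only the groups compared cannot give the averaged effects or the interaction.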
